A study of Mus musculus with 10 samples.

Results

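The expression of 10 genes of heat-producing fat was followed in inguinal subcutaneous white adipose tissue of irradiated and unirradiated mice. They were Ucp1, Cidea, Cox8b, Cox7a1, Ppargc1a, Dio2, Prdm16, Elovl3, Ebf2 and Kcnk3, a named list whose symbols were looked up in the count tables, and all 10 were found among 24421 gene symbols. All mice were wild-type C57BL/6J, and the fat came from the left hindlimb at day 70. In the FLASH group (4 libraries) that limb had received 33.3 Gy of electrons at ultra-high dose rate, in the CONV group (3 libraries) the same dose from the same ElectronFlash accelerator at conventional dose rate, and in the sham group (3 libraries) no irradiation. Total RNA depleted of ribosomal RNA was sequenced, and 22.4 M to 36.0 M reads (M is 1e6) per library were assigned to genes. The labels give no age or sex, and do not tie libraries to single mice, so the p-values below measure only the spread between these samples.

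Brown adipocytes, and the beige adipocytes that can appear inside inguinal white fat, burn fuel to make heat. Noradrenaline from sympathetic nerves acts on beta-adrenergic receptors and raises cyclic AMP, which frees fatty acids and switches on Ppargc1a, Dio2 and Ucp1. The protein of Ucp1 sits in the inner mitochondrial membrane and lets protons flow back without making ATP. Prdm16 and Ebf2 encode nuclear factors that set and keep the brown and beige cell identity. In mice, inguinal fat is known as the white depot that turns beige most readily.

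The promoters of 3 of the genes are shown first because they differ in the part of this pathway they represent. Ucp1 is the heat producer itself, Cox8b is a respiratory chain subunit that was highest in the same 2 libraries as Ucp1, and Dio2 carries a cyclic AMP response element (CRE), the site through which cyclic AMP acts. Each sequence runs 5′ to 3′ on the gene's own strand from 250 bases before to 50 after the RefSeq start (GRCm38.p6), at chr8:83290098-83290397 (plus strand) for Ucp1, chr7:140900397-140900696 (minus strand) for Cox8b and chr12:90738989-90739288 (minus strand) for Dio2. Capitals mark every match to the motifs searched. The GENCODE gene ends given at the close differ from some of these starts.
Ucp1: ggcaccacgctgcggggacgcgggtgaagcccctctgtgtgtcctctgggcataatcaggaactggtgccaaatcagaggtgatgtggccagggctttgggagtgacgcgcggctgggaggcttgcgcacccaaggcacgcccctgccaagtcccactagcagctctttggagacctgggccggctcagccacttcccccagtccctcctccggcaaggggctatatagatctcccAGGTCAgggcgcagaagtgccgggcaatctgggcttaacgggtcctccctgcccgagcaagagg
Cox8b: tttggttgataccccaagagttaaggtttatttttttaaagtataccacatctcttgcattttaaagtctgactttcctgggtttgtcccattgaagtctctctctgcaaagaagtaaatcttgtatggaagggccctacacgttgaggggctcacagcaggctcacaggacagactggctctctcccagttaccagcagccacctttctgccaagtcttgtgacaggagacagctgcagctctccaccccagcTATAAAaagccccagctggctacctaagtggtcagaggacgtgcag
Dio2: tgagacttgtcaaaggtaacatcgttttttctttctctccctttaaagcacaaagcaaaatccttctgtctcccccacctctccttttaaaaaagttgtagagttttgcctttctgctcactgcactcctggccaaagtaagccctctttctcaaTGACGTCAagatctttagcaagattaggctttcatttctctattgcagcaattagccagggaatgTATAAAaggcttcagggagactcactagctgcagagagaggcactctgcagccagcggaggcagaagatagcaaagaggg

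The motifs were searched on both strands in the promoters of the 6 genes that RefSeq's table holds at this length, which leaves Cidea, Elovl3, Ebf2 and Kcnk3 unread. The CRE (TGACGTCA) lay in Dio2, starting 95 bases before its start site, and 1.79% of 32851 promoters hold it. The nuclear receptor half-site (AGGTCA), held by 16.3% of promoters, lay in Ucp1 at position −14. The TATA box (TATAAA), held by 13.6%, lay at position −30 in Dio2 and at 4 in Cox8b, counting the start base as 0. The estrogen-related receptor element (TCAAGGTCA, held by 0.423%) was not among the letters of any of the 6, nor were the PPAR-RXR direct repeat, which is a pair of the half-sites spaced by 1 base (0.0396%), and the EBF motif (0.904%). These matches describe the letters alone.

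Some libraries differed in tissue content in ways that touch the thermogenic genes. FLASH replicate 3 and CONV replicate 2 held 2060 and 2542 CPM (reads per 1e6 assigned reads after TMM scaling) summed over 11 B cell and lymph node markers. These markers summed to 3.76 to 5.50 CPM in FLASH replicates 1, 2 and 4, to 17.9 and 11.8 CPM in CONV replicates 1 and 3, and to 4.75 to 7.26 CPM in sham. The white adipocyte list mean lay at −2.28 and −2.68 log2 units from the sham mean in this lymph node pair, and between −0.29 and 0.36 in the remaining libraries. The defining adipocyte gene Adipoq was present throughout, at 268 CPM or more. Results are therefore given with all 10 libraries and without the pair (8 libraries, FLASH n = 3, CONV n = 2, sham n = 3). Skeletal muscle markers summed to 8422 CPM in CONV replicate 1, 3426 CPM in sham replicate 3 and 1902 CPM in FLASH replicate 2, against 8.72 to 568 CPM elsewhere. In bulk tissue, fewer cells of a type and less RNA per cell cannot be told apart.

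**Figure D1:**
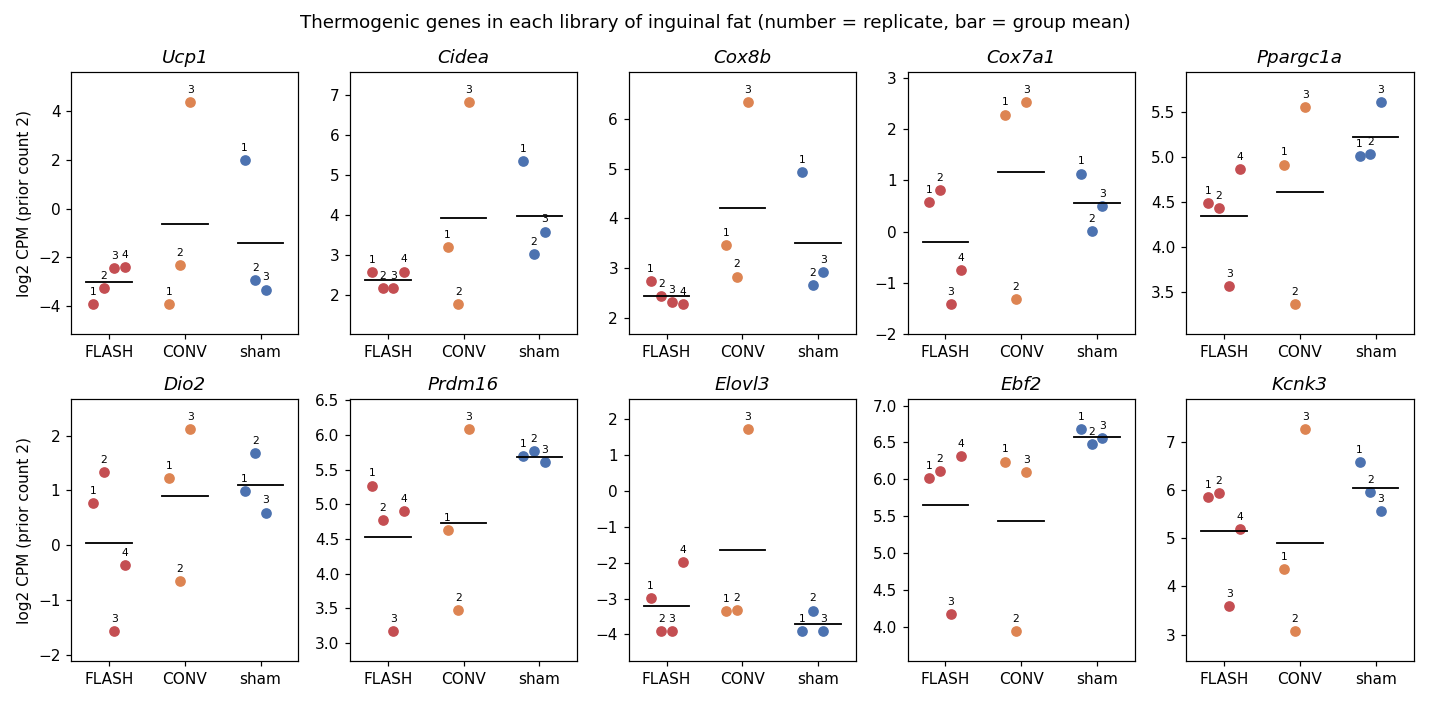
Level of each thermogenic gene in each library as log2 CPM with a prior count of 2 (vertical axis), for FLASH, CONV and sham, where each point is a library, its number the replicate and each bar the group mean. CONV replicate 3 is the highest library for 8 of the 10 genes, and FLASH replicate 3 and CONV replicate 2 are the lowest pair for 6 of the 8 genes tested. The share of all genes with these orders was not counted.

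Ucp1 was close to absent in most of this fat and present in 2 libraries. Its read counts were 0, 1, 3 and 4 in FLASH replicates 1 to 4, 0, 4 and 561 in CONV replicates 1 to 3, and 130, 2 and 1 in sham replicates 1 to 3. CONV replicate 3 thus stood at 20.6 CPM and sham replicate 1 at 3.95 CPM, while every FLASH library held 0.124 CPM or less. A count of 3, the level below which a gene was treated as not seen, equals 0.0833 to 0.134 CPM before TMM scaling and covers counting error only. Ucp1 did not pass the filter on low counts with 10 libraries. With 8 libraries it entered the fit only through CONV replicate 3 and sham replicate 1, so no test result is given. The log2 fold changes were −4.56 for FLASH against sham, 2.89 for CONV against sham and −7.46 for FLASH against CONV. Their sizes rest on 1 library in each of CONV and sham and, with counts near 0 in FLASH, are no bound.

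Elovl3, which elongates very long chain fatty acids in brown fat and in skin glands, was seen in a single library beyond a few reads. Its counts were 2, 0, 0 and 6 in FLASH replicates 1 to 4, 1, 1 and 88 in CONV replicates 1 to 3, and 0, 1 and 0 in sham replicates 1 to 3. The high value, 3.24 CPM, was again in CONV replicate 3. It was not tested in either set of libraries. Keratinocyte and hair follicle markers summed to 204 CPM in FLASH replicate 4, which had the next highest Elovl3. They summed to 41.4 CPM in CONV replicate 3, against 13.3 to 35.6 CPM elsewhere. Of that 41.4 CPM, 24.8 CPM was Trp63, which also stood at 20.4 CPM in CONV replicate 1. The markers of this list did not move together in CONV replicate 3. The basal keratins Krt5 and Krt14, at 3.94 and 2.32 CPM, lay above every sham library. Krt10, at 1.14 CPM, lay below the sham range of 1.48 to 2.12 CPM, and Sfn, at 1.84 CPM, lay within its sham range. Sebaceous gland markers summed to 11.8 to 33.1 CPM over all libraries, with 30.2 CPM in CONV replicate 3. The part of either list in the Elovl3 values was not tested. Pitx3, whose exons overlap Elovl3 on the opposite strand, had at most 6 reads in any library.

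Cidea, a lipid droplet protein that marks brown and beige adipocytes, was seen in all libraries. It stood at 5.94, 4.46, 4.48 and 5.96 CPM in FLASH replicates 1 to 4, at 9.19, 3.38 and 113 CPM in CONV replicates 1 to 3, and at 40.7, 8.07 and 11.97 CPM in sham replicates 1 to 3. All 4 FLASH libraries lay below all 3 sham libraries, whereas CONV spanned the whole range. The log2 fold change was −1.96 ± 1.03 (SE) for FLASH against sham and 1.04 ± 1.10 for CONV against sham (edgeR adjusted p = 0.998 and 0.691). For FLASH against CONV it was −3.00 ± 1.06 (edgeR adjusted p = 0.999). Leaving out sham replicate 1 moved the first to −0.95, and leaving out CONV replicate 3 moved the second to −1.70 and the third to −0.27.

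Cox8b encodes a subunit of cytochrome oxidase, the last enzyme of the respiratory chain, that mice use in brown fat, heart and muscle. It stood at 6.63, 5.34, 4.90 and 4.79 CPM in FLASH replicates 1 to 4, at 11.02, 7.04 and 81.0 CPM in CONV replicates 1 to 3, and at 30.4, 6.22 and 7.53 CPM in sham replicates 1 to 3. FLASH lay wholly below CONV but overlapped sham, since FLASH replicate 1 was above sham replicate 2. In edgeR its log2 fold change was −1.44 ± 0.85 for FLASH against sham, 1.17 ± 0.92 for CONV against sham and −2.61 ± 0.87 for FLASH against CONV (edgeR adjusted p = 0.998, 0.621 and 0.999). Without sham replicate 1 the first was −0.35, and without CONV replicate 3 the second was −0.71 and the third −0.73.

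Cox7a1 encodes another oxidase subunit of the same tissues, and its highest values were in CONV. It stood at 1.42, 1.68, 0.309 and 0.525 CPM in FLASH replicates 1 to 4, at 4.80, 0.335 and 5.70 CPM in CONV replicates 1 to 3, and at 2.13, 0.944 and 1.35 CPM in sham replicates 1 to 3. Its log2 fold change was −0.58 ± 0.87 for FLASH against sham, 1.29 ± 0.95 for CONV against sham and −1.87 ± 0.88 for FLASH against CONV (edgeR adjusted p = 0.998, 0.614 and 0.999). With 8 libraries the CONV values lay above all of sham (1.81 ± 0.50, adjusted p = 0.188) and above all of FLASH (−2.11 ± 0.50, adjusted p = 0.160). CONV replicate 1 was also the library richest in muscle, which carries Cox7a1, with Ckm at 209 CPM. CONV replicate 3 held the least muscle signal, with Ckm at 0 and a marker sum of 8.72 CPM, and had the highest Cox7a1. With the muscle list mean as a covariate, the log2 fold change of CONV against sham was 1.24 ± 1.00 (edgeR adjusted p = 0.562). CONV replicates 1 and 3, both high in Cox7a1, lay at opposite ends of the muscle marker sums. This fit therefore does not settle the part of muscle in Cox7a1, which was not tested further.

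The oxidase isoforms were also set against their common counterparts. Per kilobase of exon, Cox8b reached 5.95%, 6.43%, 13.5% and 6.71% of Cox8a in FLASH replicates 1 to 4, 22.1%, 17.7% and 48.2% in CONV replicates 1 to 3, and 25.0%, 10.2% and 13.2% in sham replicates 1 to 3. All 3 CONV libraries thus lay above all 4 FLASH libraries in this ratio. How often other gene ratios separate these libraries was not counted. The ratio does not depend on the scaling between libraries, but it can depend on tissue content. Muscle also uses Cox8b, and muscle markers summed to 8422 CPM in CONV replicate 1, while CONV replicate 2 was rich in lymph node markers. Their part in the ratio was not tested. Cox7a1 reached 1.46% to 4.68% of Cox7a2 in FLASH, 1.67% to 15.8% in CONV and 2.99% to 4.39% in sham, with the top value in muscle-rich CONV replicate 1. Cox8a and Cox7a2 themselves averaged 210 ± 86.4 and 60.9 ± 17.8 CPM per kilobase in FLASH (SD, n = 4), 239 ± 198 and 75.0 ± 49.2 in CONV (n = 3) and 222 ± 100 and 70.2 ± 17.7 in sham (n = 3).

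**Figure D2:**
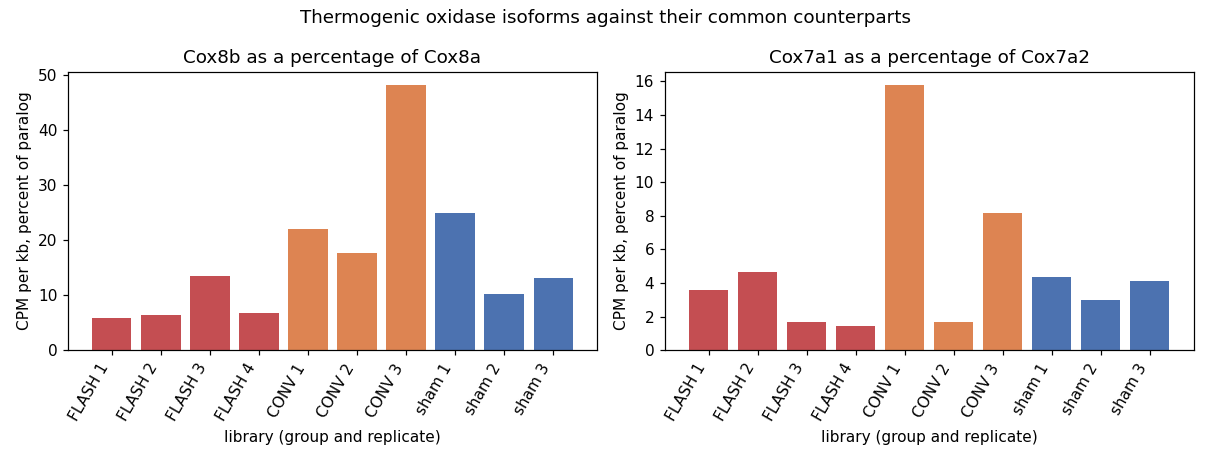
Level of Cox8b as a percentage of Cox8a (left) and of Cox7a1 as a percentage of Cox7a2 (right), from CPM per kilobase of exon, with 1 bar per library coloured by group (FLASH red, CONV orange, sham blue). Cox8b reaches 48.2% of Cox8a in CONV replicate 3 and 25.0% in sham replicate 1, and Cox7a1 peaks at 15.8% of Cox7a2 in CONV replicate 1.

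Dio2, the deiodinase that makes active thyroid hormone inside brown adipocytes, was low throughout. It stood at 1.64, 2.45, 0.270 and 0.711 CPM in FLASH replicates 1 to 4, at 2.27, 0.570 and 4.27 CPM in CONV replicates 1 to 3, and at 1.91, 3.16 and 1.45 CPM in sham replicates 1 to 3. The groups overlapped in every comparison. Fitted log2 fold changes were −0.78 ± 0.80 for FLASH against sham and 0.12 ± 0.86 for CONV against sham (edgeR adjusted p = 0.998 and 0.958), and without CONV replicate 3 the CONV value was −0.62. Its CRE is the one printed in capitals above.

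Kcnk3 encodes a potassium leak channel of brown adipocytes that sets their membrane potential. It stood at 57.5, 60.7, 11.97 and 36.4 CPM in FLASH replicates 1 to 4, at 20.4, 8.34 and 152 CPM in CONV replicates 1 to 3, and at 95.6, 61.5 and 47.3 CPM in sham replicates 1 to 3. CONV held both the highest and the lowest library. On the log2 scale the fold change was −0.71 ± 0.89 for FLASH against sham and −0.18 ± 0.96 for CONV against sham (edgeR adjusted p = 0.998 and 0.945), and without CONV replicate 3 the second was −2.26. The transcript Gm9899 overlaps Kcnk3 exons on the opposite strand and had 24 to 472 reads per library. The labels do not state whether counting used strand, so reads of the pair may have been shared.

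Among the regulators, Ppargc1a, the coactivator that drives mitochondrial genes, stood at 22.5, 21.6, 11.8 and 29.2 CPM in FLASH replicates 1 to 4, at 30.2, 10.3 and 47.0 CPM in CONV replicates 1 to 3, and at 32.3, 32.7 and 48.8 CPM in sham replicates 1 to 3. All FLASH libraries lay below all sham libraries. The log2 fold change of FLASH against sham was −0.83 ± 0.47 with 10 libraries and −0.64 ± 0.24 with 8 (edgeR adjusted p = 0.998 and 1.00). For CONV against sham it was −0.38 ± 0.51 with 10 libraries and 0.00 ± 0.26 with 8 (adjusted p = 0.743 and 0.996).

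Prdm16, the coregulator that holds the brown and beige programme, stood at 38.5, 27.2, 8.95 and 30.0 CPM in FLASH replicates 1 to 4, at 24.7, 11.1 and 67.6 CPM in CONV replicates 1 to 3, and at 51.8, 54.2 and 48.6 CPM in sham replicates 1 to 3. Again all FLASH libraries lay below the narrow sham range, while CONV had libraries on each side of it. FLASH against sham had a log2 fold change of −0.98 ± 0.60 with 10 libraries and −0.70 ± 0.32 with 8 (edgeR adjusted p = 0.998 and 1.00). For CONV against sham it was −0.58 ± 0.65 with 10 libraries, and −1.53 without CONV replicate 3 (adjusted p = 0.701 and 0.512).

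Ebf2, a transcription factor of brown and beige precursors that acts with the PPAR gamma receptor, had a narrow sham range. It stood at 64.9, 69.3, 18.1 and 79.9 CPM in FLASH replicates 1 to 4, at 75.6, 15.3 and 68.7 CPM in CONV replicates 1 to 3, and at 102, 88.9 and 94.2 CPM in sham replicates 1 to 3. It was the only member whose libraries in each irradiated group all lay below all sham libraries. Over all genes 2.45% were so in FLASH and 9.11% in CONV, and the share for both at once was not counted. Less the adipocyte list mean, Ebf2 overlapped between groups. It then lay −0.91 to −0.05 log2 units from the sham mean in FLASH, −0.65 to 0.05 in CONV and −0.17 to 0.18 in sham. Set against sham, FLASH had a log2 fold change of −0.71 ± 0.58 with 10 libraries and −0.42 ± 0.12 with 8 (edgeR adjusted p = 0.998 and 1.00). For CONV against sham it was −0.84 ± 0.62 with 10 libraries and −0.42 ± 0.13 with 8 (adjusted p = 0.615 and 0.239). FLASH and CONV share the same sham libraries. Adipose progenitor markers, counted as 10 genes, had a median log2 fold change of −0.27 for FLASH and −0.22 for CONV against sham with 8 libraries, and their part in the Ebf2 values was not tested.

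Taking the comparison of FLASH with sham as a whole, 8 members were tested and all 8 had negative log2 fold changes, where 45.9% of 15266 genes did. Their median was −0.81 and the range −1.96 to −0.58, beside 0.03 over all genes. None passed an adjusted p of 0.05 in edgeR, as did 0% of all genes, and 0 members had an unadjusted p under 0.05 (0.648% of all genes). DESeq2 also called 0 genes in this comparison. The libraries did not overlap in 4 members, all lower in FLASH (Cidea, Ppargc1a, Prdm16 and Ebf2), where 2.45% of all genes were lower and 2.46% higher without overlap. Ucp1 passed the filter with 8 libraries only through CONV replicate 3 and sham replicate 1, so it is left out of the 8-library counts. The other 8 members were then all negative (51.5% of all genes), with a median of −0.55 beside −0.01, and the same 4 did not overlap (4.64% of all genes lower). Of these, Ppargc1a and Ebf2 had an unadjusted p under 0.05 (2.52% of all genes), and none passed after adjustment (0%). The FLASH libraries kept had adipocyte list means of 0.36, 0.10 and −0.20 log2 units from the sham mean. With the adipocyte list mean as a covariate and all 10 libraries, the 8 fold changes were −1.26 to −0.21 (adjusted p = 1.00 for each). The members were listed with earlier results of these data known, so these counts are a description.

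**Figure D3:**
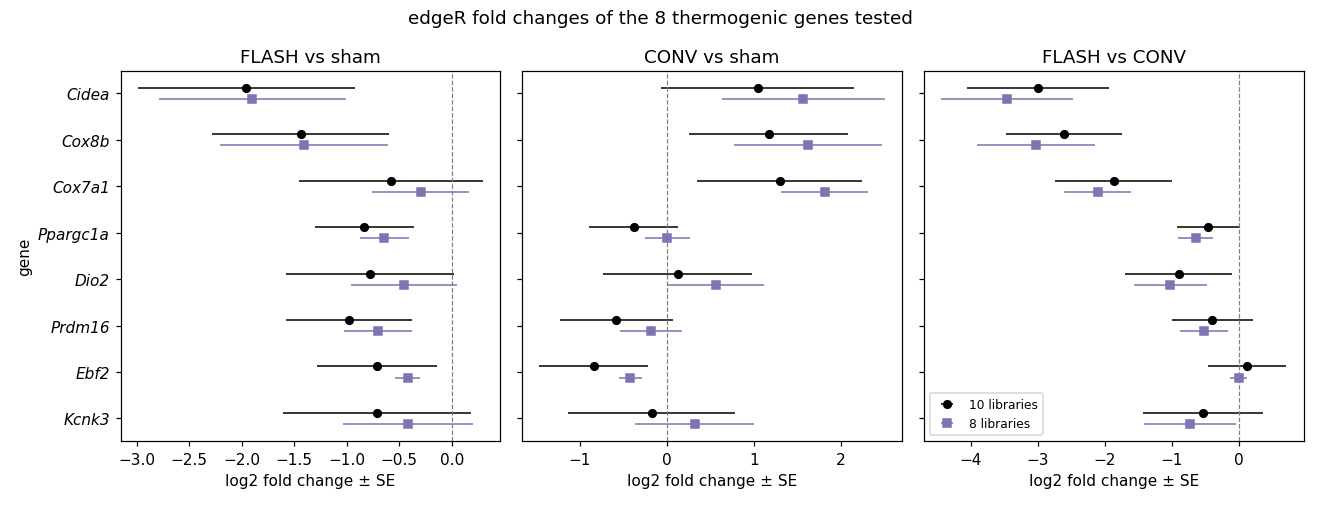
edgeR log2 fold changes of the 8 tested thermogenic genes (horizontal axis, bars ± SE) of each irradiated group against sham and of FLASH against CONV, with 10 libraries (black circles) and 8 libraries (purple squares). All FLASH against sham values lie below 0, while CONV against sham runs from −0.84 for Ebf2 to 1.29 for Cox7a1 with 10 libraries and from −0.42 for Ebf2 to 1.81 for Cox7a1 with 8.

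In CONV against sham the members lay on both sides of 0. Negative log2 fold changes were found in 4 of 8 members (43.1% of all genes), with a median of −0.03 beside 0.08 over all genes. Cox7a1, Cox8b, Cidea and Dio2 were positive, and Ebf2, Prdm16, Ppargc1a and Kcnk3 were negative. No member passed in edgeR (0% of all genes) or had an unadjusted p under 0.05 (5.82%). Only Ebf2 was lower without overlap (9.11% of all genes). DESeq2 called 66 genes here, 0 of them members. With 8 libraries 2 of 8 members were negative (48.7%), the median was 0.44 beside 0.01, and 0 members were among the calls (0.0393% of all genes). Cox7a1 and Ebf2 had an unadjusted p under 0.05 (13.3%), Cox7a1 being higher without overlap (13% of all genes) and Ebf2 lower (13.2%). The CONV replicates behind these means differed widely. In CONV replicate 3, 6 of the 8 tested members lay above every sham library (37.5% of all tested genes) and Ebf2 lay below all of them (35%). In CONV replicate 1, only Cox7a1 lay above every sham library (28.5% of all tested genes) and 4 members lay below all of them (28.3%).

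FLASH was set against CONV at the same dose to ask whether dose rate mattered. Of the 8 members 7 were negative (55.8% of all genes), with a median log2 fold change of −0.72 beside −0.04. None passed in edgeR (0%), 2 had an unadjusted p under 0.05, Cidea and Cox8b (2.97% of all genes), and Cox8b alone was lower without overlap (1.12%). DESeq2 called 40 genes, 0 of them members. With 8 libraries the 8 members other than Ucp1 were negative (53.1%), and Cidea, Cox8b, Cox7a1 and Ppargc1a were lower in FLASH without overlap (13.3%). These 4 had an unadjusted p under 0.05 (13.7%), and no member was among the calls (0.0131%). Cidea then had −3.46 ± 0.98 (adjusted p = 0.200) and Cox8b −3.03 ± 0.88 (adjusted p = 0.206). Skeletal muscle markers, which share a tissue with Cox8b and Cox7a1, had negative log2 fold changes here too, and none passed: 14 of 14 tested were negative with 10 libraries (median −2.86) and 15 of 15 with 8 (median −3.06). With the muscle list mean as a covariate and 10 libraries, Cox8b had −2.45 ± 0.75 and Cox7a1 −1.83 ± 0.92. The part of muscle in these values was not tested further. The differences of Cidea and Cox8b were smaller without CONV replicate 3. With all other libraries kept, Cidea had −0.27 ± 0.66 and Cox8b −0.73 ± 0.61. When it was left out of the 8 libraries, which leaves a single CONV library assumed to vary like the other groups, Cidea had −0.75 ± 0.81, Cox8b −0.98 ± 0.82 and Cox7a1 −1.99 ± 0.61.

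**Figure D4:**
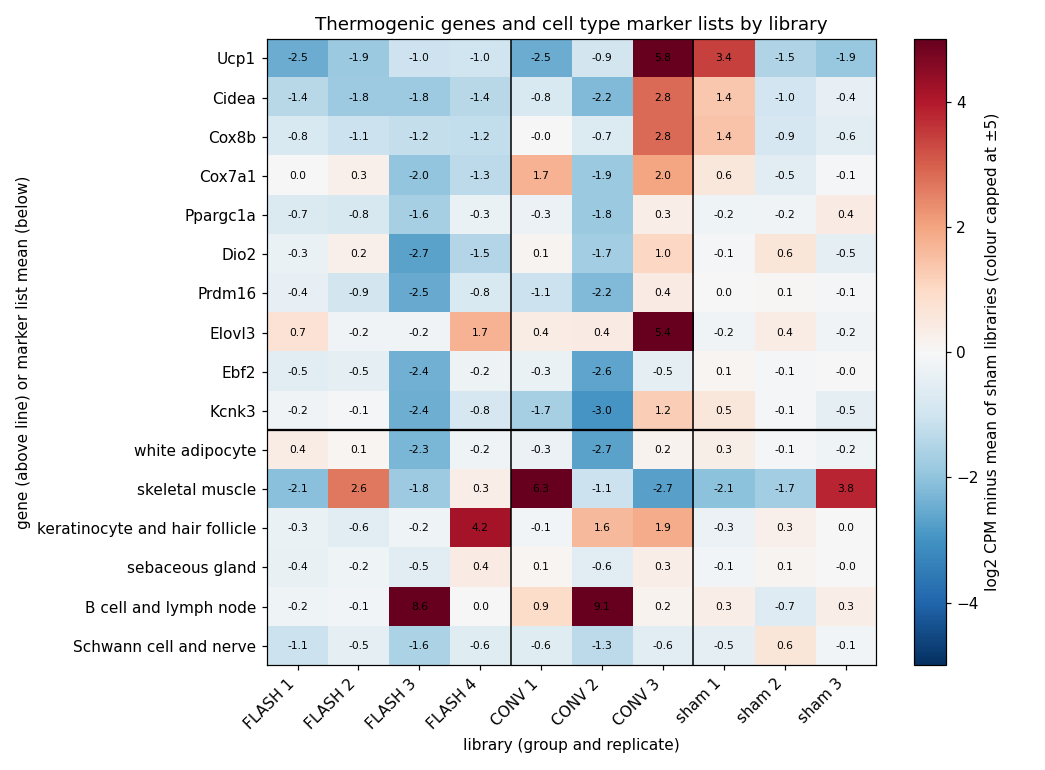
Log2 CPM minus the mean of the sham libraries for each thermogenic gene (rows above the line) and for the mean of marker lists (rows below it), in each library of FLASH, CONV and sham (columns), with colour capped at 5 in each direction. CONV replicate 3 and sham replicate 1 share high Ucp1, Cidea and Cox8b, and FLASH replicate 3 and CONV replicate 2 share high lymph node and low adipocyte markers.

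The members shared much of their order across libraries. CONV replicate 3 was the highest library for 8 of 10 members, and CONV replicate 3 with sham replicate 1 formed the top pair for 4 (Ucp1, Cidea, Cox8b and Kcnk3). The share of all genes with these orders was not counted, but 37.5% of all tested genes lay above every sham library in CONV replicate 3. The common subunits Cox8a (289 CPM) and Cox7a2 (123 CPM) were also highest in that library, so this order is not particular to the members. Between highest and lowest library, Cidea spanned 33.3-fold, Kcnk3 18.3-fold and Cox8b 16.9-fold, against 6.66-fold for Ebf2 and 4.75-fold for Ppargc1a. In FLASH replicate 4 all 8 tested members lay below every sham library, as did 22.8% of all tested genes. That library also held the most keratinocyte and hair follicle signal (204 CPM, with a list mean 4.17 log2 units above the sham mean), whose part in these values was not tested. Compared per kilobase of exon in sham, the order of mean levels was Cox8b (40.9 ± 37.7 CPM per kilobase, SD, n = 3), Cidea (18.2 ± 16.0), Kcnk3 (17.1 ± 6.24) and Ebf2 (13.7 ± 0.970). Neighbours among these overlapped across the sham libraries. Ppargc1a (5.75 ± 1.43) and Prdm16 (5.53 ± 0.300) came next and overlapped, then Cox7a1 (2.75 ± 1.12), Ucp1 (0.825 ± 1.38) and Dio2 (0.374 ± 0.152), each overlapping its neighbour, with Elovl3 last. This order rests in part on sham replicate 1: without it Cidea averaged 8.99 CPM per kilobase, below Kcnk3 (13.7) and Ebf2 (13.2), Cox8b averaged 19.1, and Ucp1 averaged 0.0302, below Dio2 (0.396).

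The 5 genes nearest to Cidea in profile were Mpzl2, P2rx5, Vat1l, Gpx8 and Ddo. Nearness was the root-mean-square difference of centred log2 CPM over the 10 libraries among 12493 genes, and it was 0.59, 0.60, 0.61, 0.63 and 0.66 log2 units for these, with a median of 1.54 over all genes. Within the members Cox8b was nearer still, at 0.48. P2rx5 is a purine receptor used as a surface marker of brown and beige adipocytes. It stood at 4.33, 2.74, 2.08 and 2.97 CPM in FLASH replicates 1 to 4, at 3.52, 3.45 and 39.3 CPM in CONV replicates 1 to 3, and at 9.72, 4.43 and 3.36 CPM in sham replicates 1 to 3. All these genes were read in the same libraries, which differ in depth and tissue content. The part of those differences in this likeness was not tested.

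**Figure D5:**
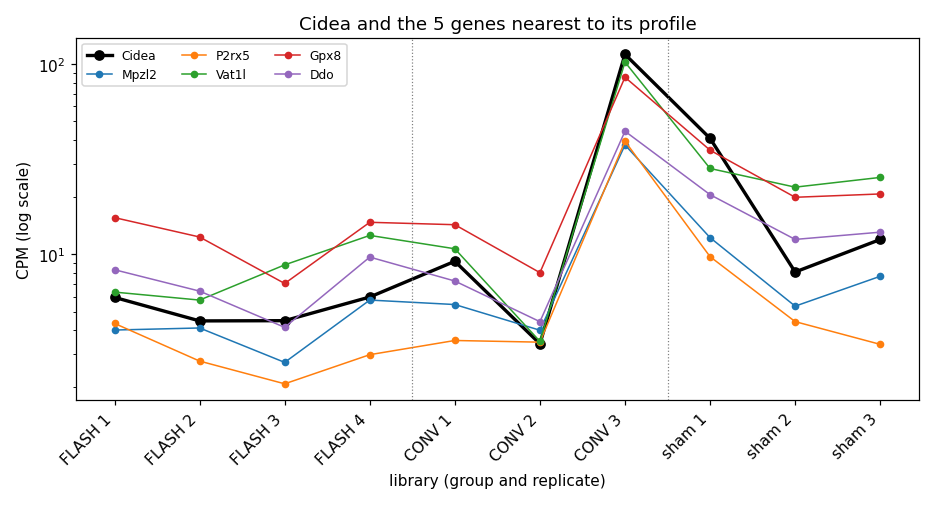
Level in CPM (log scale) of Cidea (black) and of the 5 genes with the nearest profile (coloured lines) in each library of FLASH, CONV and sham. All 6 genes are highest in CONV replicate 3, where Cidea stands at 113 CPM, and next highest in sham replicate 1.

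The rest of the pathway was followed in 8 lists of 108 genes, of which 107 were in the files and 96 were tested. No gene of any list passed in either direction in any of the 3 comparisons, with 10 or 8 libraries. With 10 libraries 73 of 96 had negative log2 fold changes in FLASH against sham (median −0.20), 40 in CONV against sham (median 0.11) and 63 in FLASH against CONV (median −0.22), beside medians of 0.03, 0.08 and −0.04 and negative shares of 45.9%, 43.1% and 55.8% over all genes. With 8 libraries the counts were 63, 34 and 67 and the medians −0.07, 0.21 and −0.28, where 51.5%, 48.7% and 53.1% of all genes were negative. Genes named below had the smallest p of their list in a direction with 10 libraries, where their edgeR adjusted p was 0.607 or more.

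For the nerve and receptor input, Th and Dbh, which make noradrenaline, had reads in few libraries, Th being at 0 in 8 of them. All 3 tested genes of the sympathetic list had negative values in each irradiated group, with the noradrenaline transporter Slc6a2 at −1.09 ± 1.15 for FLASH and the vesicular transporter Slc18a2 at −0.80 ± 0.64 for CONV against sham (−1.87 ± 1.25 without FLASH replicate 4 and −1.77 ± 0.59 without CONV replicate 1). The mean of 9 Schwann cell and nerve markers lay at −1.58 to −0.47 log2 units from the sham mean in FLASH, −1.30 to −0.58 in CONV and −0.49 to 0.62 in sham, and its part in these values was not tested. Of 12 adrenergic genes 8 were negative for FLASH (median −0.14) and 6 for CONV (median −0.06). Pde4d, which breaks down cyclic AMP, averaged 87.9 ± 28.3 CPM in FLASH, 64.3 ± 31.6 in CONV and 135 ± 7.30 in sham. Rgs2, a brake on G protein signals, averaged 28.4 ± 8.67 CPM in CONV and 9.87 ± 0.146 in sham (log2 fold change 1.52 ± 0.65). The beta-3 receptor gene Adrb3 stood at 118 to 279 CPM in FLASH, 49.5 to 606 CPM in CONV, with the top value in CONV replicate 3, and 134 to 383 CPM in sham.

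Of 19 thermogenic transcription factors and cofactors 14 were negative for FLASH (median −0.17) and 11 for CONV (median −0.06) against sham. Foxc2, a forkhead factor of fat browning, had −1.29 ± 0.71 in FLASH against sham and −2.37 ± 0.51 without FLASH replicate 4, the corepressor Tle3 0.26 ± 0.21, and 0.46 ± 0.21 in FLASH against CONV. Ebf1 had −0.72 ± 0.42 and Irf4 2.13 ± 0.91 in CONV against sham, and Cebpb −1.02 ± 0.58 in FLASH against CONV, which was −0.003 ± 0.47 without CONV replicate 3. Irf4 is also a lymphocyte gene, and it peaked in the lymph node pair, with 109 CPM in the FLASH member of that pair and 260 CPM in the CONV one, and without the pair it had 0.41 ± 0.25 in CONV against sham.

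Of 13 beige and brown markers 7 were negative for FLASH and 3 for CONV. Shox2, a homeobox gene, averaged 14.6 ± 8.18 CPM in FLASH, 17.2 ± 10.6 in CONV and 40.9 ± 4.36 in sham, with log2 fold changes of −1.49 ± 0.56 and −1.25 ± 0.61 against sham. Tnfrsf9, a beige marker that lymphocytes also carry, had 2.78 ± 1.25 and 3.21 ± 1.31, and its top values were in the lymph node pair, 10.4 CPM in the FLASH one and 9.28 CPM in the CONV one. Without that pair its log2 fold changes were 0.70 ± 0.42 and 1.90 ± 0.44. P2rx5 had −2.34 ± 0.85 (−0.19 ± 0.48 without CONV replicate 3) and Hoxc9 0.45 ± 0.49 in FLASH against CONV.

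Fuel supply and oxidase genes are read against the 45.9% (FLASH) and 43.1% (CONV) of all genes that were negative against sham. Of 19 fatty acid genes 17 were negative in FLASH (median −0.26) and 6 in CONV (median 0.27) against sham. For FLASH, Slc27a2 had −1.996 ± 1.58, on 0 to 6 reads per FLASH library and 5 to 20 per sham library, and Acsl5 0.10 ± 0.17. For CONV, Acsl5 had 0.54 ± 0.18 and Lpl −0.62 ± 0.91. In FLASH against CONV the coenzyme A enzyme Pank1 had −1.29 ± 0.43, and −0.41 ± 0.23 without CONV replicate 3, while Lpl had 0.80 ± 0.86. Without CONV replicate 1 Lpl had 1.48 ± 1.02 there and −1.30 ± 1.04 in CONV against sham, and without FLASH replicate 3 Acsl5 had −0.03 ± 0.15 in FLASH against sham. Of 13 other oxidase subunits 12 were negative in FLASH (median −0.20) and 1 in CONV (median 0.15). With 8 libraries the fuel counts were 13 and 2 (medians −0.06 and 0.65) and the oxidase counts 9 and 1 (medians −0.06 and 0.42). The CONV libraries differed among themselves, with fuel list means of 0.16, −1.32 and 1.17 and oxidase list means of 0.17, −0.52 and 0.68 log2 units from the sham mean in replicates 1 to 3. Cox6c had −0.36 ± 0.40 and Cox7a2l 0.08 ± 0.17 (−0.06 ± 0.15 without FLASH replicate 3) in FLASH against sham, Cox4i2 −0.51 ± 0.37 in CONV against sham and 0.35 ± 0.35 in FLASH against CONV. The muscle isoform Cox6a2 had 2.82 ± 1.83 in CONV against sham and −3.38 ± 1.69 in FLASH against CONV, and stood at 8.29 CPM in muscle-rich CONV replicate 1, without which it had −0.90 ± 1.72 and 0.34 ± 1.63.

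For heat cycles that do not use UCP1, 9 of 11 genes were negative in FLASH (median −0.29) and 5 in CONV (median 0.15), and with 8 libraries the medians were −0.05 and −0.32. Ckb, the creatine kinase of one such cycle, averaged 13.9 ± 4.36 CPM in CONV and 22.2 ± 4.37 in sham, and stood at 11.4 CPM in CONV replicate 3, the library with the most Ucp1. Gatm, which makes a creatine precursor, had −0.53 ± 0.26 and the calcium channel Ryr2 0.97 ± 0.81 in FLASH against sham. Alpl had 1.11 ± 0.59 in CONV against sham and −1.47 ± 0.55 in FLASH against CONV, and 0.02 ± 0.39 and −0.39 ± 0.36 without lymph-node-rich CONV replicate 2. Gamt had 0.88 ± 0.73 in FLASH against CONV. Of 6 secreted signals 3 were negative in FLASH (median −0.07) and 5 in CONV (median −0.33), with 8-library medians of 0.00 and 0.15. Among them Nrg4 had −0.75 ± 0.67 and Gdf15 0.94 ± 0.63 in FLASH against sham, Gdf15 1.67 ± 0.65 and Fgf21 −1.72 ± 1.05 in CONV against sham, and Bmp7 0.86 ± 0.60 and Gdf15 −0.73 ± 0.58 in FLASH against CONV. Fgf21 had −2.92 ± 1.32 without CONV replicate 3, and Bmp7 1.56 ± 0.64 without CONV replicate 1. Gdf15 had 2 to 14 reads and Fgf21 0 to 17 reads per library, near the floor of 3 counts.

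The genes lie on 8 chromosomes in GENCODE M21 on GRCm38 (mm10), so they do not share a locus. Ucp1 lies at 83290352 to 83298452 on chromosome 8, Prdm16 at 154316125 to 154636873 on chromosome 4, Dio2 at 90724552 to 90738438 on chromosome 12, Elovl3 at 46131897 to 46135694 on chromosome 19 and Ebf2 at 67233292 to 67430918 on chromosome 14. Chromosome 7 carries Cox7a1 at 30184144 to 30186078 and Cox8b at 140898945 to 140900446, and chromosome 5 carries Kcnk3 at 30588170 to 30625271 and Ppargc1a at 51454250 to 51567726. Cidea lies at 67343604 to 67367785 on chromosome 18. Exons of 5 members overlap a gene on the opposite strand, and those of Ucp1, Cidea, Cox8b, Cox7a1 and Ppargc1a do not.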

How the data were processed

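Gene counts per library were deposited by the authors, and the submitters' processing notes name kallisto 0.5.0 and mm10, and no strand setting is named in the labels. Entries naming no gene, 52.0% to 69.6% of reads, were left out of library sizes. Counts were tested with edgeR 4.0.16 in R 4.3.3 (TMM scaling, default low-count filter, robust quasi-likelihood fit of all 10 libraries, Benjamini-Hochberg adjustment over 15266 genes, threshold 0.05). SE is the size of the log2 fold change divided by the square root of F. CPM use TMM-scaled library sizes, and 3 counts were taken as the floor. The members and lists were chosen with earlier results of these data known, and per list and comparison the gene with the smallest p in each direction was named, except for results not reported here. Exon lengths came from GENCODE M21 and promoters from RefSeq. Alternatives were DESeq2 1.42.0 (test and size factors), no filter, a replicate block, adipocyte and muscle covariates, 8 libraries, and leaving out each library. The edgeR script was tested on simulated data whose spread was set below that of these 10 libraries. That test checks the code and not its power on these data.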

Additional observations from a re-analysis of the deposited data

Results flagged for a closer look

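In the 4 FLASH libraries, the distance of the highest or lowest value to its nearest neighbour was compared with the whole range for 39 genes, and chance flags about 1 in 20 groups. No thermogenic member was flagged. FLASH replicate 3, which is rich in lymph node markers, stood apart as highest for Acsl5 (76.3 CPM), Irf4 (109 CPM), Rgs2 (35.9 CPM) and Tnfrsf9 (10.4 CPM), and as lowest for Cox6c (33.5 CPM). FLASH replicate 4 stood apart as highest for Foxc2 (1.42 CPM).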

How the results depend on the processing

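At an adjusted p of 0.05 edgeR called 0 genes in each comparison, with 99 at an unadjusted p under 0.05 between FLASH and sham, 889 between CONV and sham and 453 between FLASH and CONV. FLASH against sham stayed at 0 under all alternatives run, DESeq2 included. CONV against sham had 66 genes with DESeq2, 6 with 8 libraries (among them Socs3, Card14, Prg4, Il4ra and Vmp1, all higher in CONV and named after their values were seen) and 0 to 1 on leaving out each library. FLASH against CONV had 40 with DESeq2, 2 with 8 libraries (Prg4 and Socs3), 2 with the adipocyte covariate (Csf3r and Ppa1) and 0 to 1 on leaving out each library. The causes were not tested. With the replicate number as a block, 0 genes were called in each comparison. Correlations of same-numbered libraries ran from −0.76 to 0.26, and 2 of 9 were over 0.1. Differently numbered libraries were not compared and tissue content differs, so whether the numbers pair the samples cannot be told.

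No member passed under any alternative. Signs turned in 28 of 456 member values. In CONV against sham without CONV replicate 3 among the 8 libraries, an alternative chosen after seeing the data, Cidea had −1.15 and Cox8b −0.43. In the same fit Kcnk3 had 1.34 and Prdm16 0.37 in FLASH against CONV. Without sham replicate 1 among the 8, also added after seeing the data, Cox7a1 had 0.069 in FLASH against sham. Kcnk3 in CONV against sham had 0.32 with 8 libraries, 0.19 with the adipocyte covariate and 0.64 without sham replicate 1 among the 8, and in FLASH against CONV 0.037 under the block. Ppargc1a in CONV against sham had 0.005 with 8 libraries. Ebf2 in FLASH against CONV had −0.027 under the block, −0.004 with 8 libraries, −0.10 with the adipocyte covariate, and −0.005 and −0.083 with 7 libraries, without sham replicate 1 or CONV replicate 3. On leaving out each of the 10 libraries, CONV against sham ran from −1.69 to 2.06 for Cidea, −0.71 to 2.26 for Cox8b, −0.62 to 0.58 for Dio2, −2.26 to 0.34 for Kcnk3 and −0.91 to 0.019 for Ppargc1a. FLASH against CONV ran from −0.32 to 0.47 for Ebf2, −1.05 to 1.54 for Kcnk3, −0.86 to 0.077 for Ppargc1a and −0.82 to 0.56 for Prdm16. In FLASH against sham all 8 members stayed negative on leaving out each library. Depth limits Ucp1 and Elovl3, which had 6 reads or fewer in 8 and 9 libraries.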
